A study of Rattus norvegicus with 4 samples.

Results

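Histone genes were followed in RNA-seq libraries of rat embryoid bodies, the aggregates that pluripotent cells form as they begin to differentiate. The genes were taken by symbol: a row belonged if its name starts with Hist1h, Hist2h, Hist3h or Hist4h (genes of the histone clusters, replication-dependent) or with H2af, H3f3 or H1f (variant genes, which lie outside the clusters). This gave 47 of the 32753 genes in the tables. Of these, 34 are cluster genes (5 of linker histone H1, 14 of H2A, 10 of H2B, 1 of H3 and 4 of H4) and 13 are variants (3 of H1, 7 of H2A and 3 of H3). Other histone rows of the clusters carry provisional or clone names and were not included. In all, 41 of the 47 passed a filter of at least 1 RPKM in 2 or more of the 4 libraries. RPKM scales reads to transcript length and library size. Of the 41, 31 were cluster genes and 10 variants.

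Histones are the proteins around which DNA is wound. H2A, H2B, H3 and H4 form the core of the nucleosome, and H1 binds the linker DNA between nucleosomes. The replication-dependent genes lie in clusters, have no introns, and are transcribed mainly in S phase to package newly copied DNA. Their mRNAs end in a conserved stem-loop bound by SLBP in place of a poly(A) tail, so they are counted in libraries of total RNA, as here, and largely lost from poly(A)-selected ones. Variant genes mostly have introns and polyadenylated mRNAs, are expressed throughout the cell cycle, and encode proteins such as H2A.Z, H2A.X, macroH2A and H3.3 that are placed into chromatin outside replication.

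The series compared wild-type (WT) cells with cells lacking Kcnh2, the gene of the ERG1 potassium channel (Kcnh2-/-), each with 2 libraries, numbered 1 and 2. Paired values below are in the order replicate 1, replicate 2. All 4 libraries came from embryonic stem cells of strain DASD, harvested on day 4 of differentiation. Cells of both genotypes were treated alike: 2 days in hanging drops with the inhibitors CHIR9902 (0.75 µM), PD0325901 (0.1 µM) and Y27632 (10 µM), 24 hours on laminin with CHIR9902 and PD0325901, and 1 day in a medium called DM. The labels give neither the Kcnh2 allele, nor the number of clones, nor the sex of a line, and do not say that replicates are separate cultures, so the p-values measure only the spread between these samples. In bulk RNA, a difference in the number of cells of a type cannot be told apart from a difference in RNA per cell.

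The promoters of 4 members are shown: of Hist1h2ba and Hist2h2ac, the cluster genes with the widest differences between genotypes with no overlap, of Hist2h2ab, a neighbour that did not follow, and of the variant gene H2afy2, for contrast. RefSeq promoters (assembly GRCr8, 250 bases before the annotated start) were matched by symbol or synonym for 31 of the 47 members. Each sequence runs 5′ to 3′ on the gene's strand, with capitals marking the TATA box (letters searched: TATAAA), the CAAT box (letters searched: CCAAT) and the octamer bound by Oct factors (letters searched: ATTTGCAT) on either strand. At 1 place in Hist2h2ac, TATA boxes of opposite strands overlap.
Hist1h2ba: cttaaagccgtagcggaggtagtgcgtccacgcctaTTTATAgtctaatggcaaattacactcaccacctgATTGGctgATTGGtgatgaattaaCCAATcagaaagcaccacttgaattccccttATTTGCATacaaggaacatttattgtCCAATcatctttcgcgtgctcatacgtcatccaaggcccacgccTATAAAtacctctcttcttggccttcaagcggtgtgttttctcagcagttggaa
Hist2h2ac: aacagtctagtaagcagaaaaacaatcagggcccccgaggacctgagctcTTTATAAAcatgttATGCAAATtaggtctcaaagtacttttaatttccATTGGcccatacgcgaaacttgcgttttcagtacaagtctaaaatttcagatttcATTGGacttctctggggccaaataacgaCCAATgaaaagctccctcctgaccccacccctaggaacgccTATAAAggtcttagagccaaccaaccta
Hist2h2ab: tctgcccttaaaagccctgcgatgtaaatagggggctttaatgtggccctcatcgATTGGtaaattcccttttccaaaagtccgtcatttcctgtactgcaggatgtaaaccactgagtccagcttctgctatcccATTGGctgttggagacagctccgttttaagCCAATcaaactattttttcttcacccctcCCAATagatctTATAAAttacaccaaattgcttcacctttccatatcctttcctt
H2afy2: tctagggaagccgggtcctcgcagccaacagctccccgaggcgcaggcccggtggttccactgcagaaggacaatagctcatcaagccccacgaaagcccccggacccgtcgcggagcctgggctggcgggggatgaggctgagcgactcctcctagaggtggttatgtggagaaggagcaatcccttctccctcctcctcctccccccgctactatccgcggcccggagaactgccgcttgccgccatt
The Hist1h2ba window is chr17:41599662-41599911 (plus strand) and holds an octamer 124 bases before the start and a TATA box 54 bases before it. It shares 239 bases with the window of Hist1h2aa, which is transcribed in the opposite direction. The Hist2h2ac window, chr2:186469227-186469476 (minus strand), has an octamer 186 bases and a TATA box 28 bases before the start, and shares 225 bases with the window of the divergent gene Hist2h2be. Its neighbour Hist2h2ab, at chr2:186467974-186468223 (plus strand), has 4 CAAT boxes and no octamer. The window of the macroH2A gene H2afy2, chr20:30270653-30270902 (minus strand), holds none of the 3 motifs and has a GC content of 65.6%, against 44.4% in that of Hist1h2ba.

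Cluster and variant genes differed in these motifs. A TATA box was found in 14 of 20 cluster genes (70%) and in 1 of 11 variants (9.09%, H3f3b), against 12.9% of all 33469 promoters of that length. A CAAT box was found in 19 of 20 cluster genes (95%) and in 7 of 11 variants (63.6%), against 34% of all promoters. The octamer was found in 10 of 20 cluster genes (50%), 6 of 8 for H2B and 4 of 9 for H2A, and again in 1 variant, H3f3b, against 1.56% of all promoters. Median GC content was 43.6% in cluster genes, 61.6% in variants and 51.2% in all promoters. The windows of Hist1h2aa and Hist1h2ba share 239 bases and those of Hist2h2ac and Hist2h2be 225, so a site there can be counted for both genes. A match describes the letters only and does not show that a factor binds.

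Some features of the libraries bear on every comparison. The tables do not give the number of reads, so depth is unknown; 17610 to 17833 genes were above 0 in each library. RPKM values summed to 7.95e+07 in WT and 1.09e+08 in Kcnh2-/- for replicate 1 but to 1.17e+07 and 8.93e+06 for replicate 2, so differences are also given within each number. Kcnh2 was at 2.61 and 1.45 RPKM in WT, against 0.108 and 0.504 RPKM in Kcnh2-/-, with a limma adjusted p of 0.980. The genotypes also differed on the sex chromosomes: for 7 of 8 tested Y-linked genes both Kcnh2-/- libraries lay below both WT libraries, and 359 protein-coding X-linked genes had a median log2 difference of 0.60, against -0.0191 on the autosomes. WT replicate 1 stood apart in its markers. Of 8 tested pluripotency markers (of 10 listed) it was the lowest library for 7. Their summed levels were 363 and 1646 RPKM in WT, against 1342 and 2280 in Kcnh2-/-. Most of this was Pou5f1, at 273 and 1203 RPKM against 1043 and 1679. Of the 8, 5 were higher and 3 lower in Kcnh2-/-. Their median log2 difference was 1.28 within number 1 and -0.0459 within number 2. All 7 tested endoderm markers of 8, and all 3 tested cardiomyocyte markers of 10, were highest in WT replicate 1. Endoderm sums were 212 and 53.6 RPKM in WT against 48.3 and 2.88. The cardiomyocyte sums were 681 and 43.6 RPKM in WT against 75.7 and 8.92 in Kcnh2-/-, with the heart transcription factor gene Nkx2-5 at 0.111 RPKM or less in every library. Fibroblast markers, which could mark feeder or stromal cells, were low, at 24.4 and 2.33 against 6.70 and 0.602 RPKM in sum, with Fap at 0 throughout. Sums of primitive streak markers (3 of 8 tested) were 32.4 and 17.3 against 21.1 and 11.2 RPKM, with Msgn1 at 0 throughout. Sums of trophoblast markers (4 of 8 tested) were 1913 and 437 against 829 and 334. Most of these were the keratin genes Krt8, at 1567 and 175 against 531 and 53.1, and Krt18, at 314 and 230 against 253 and 255. Tfap2c was instead lowest in WT replicate 1, at 2.26 and 20.9 against 13.9 and 20.4. Of the 4 tested, 1 was higher and 3 lower in Kcnh2-/-.

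Cluster genes were on the whole higher in Kcnh2-/-, none of them past the threshold. Of the 31 tested, 29 had a positive difference in log2(RPKM + 1), where 50.4% of all genes did. Their median difference was 0.38, against 0.00524 over all 12355 genes tested. None passed an adjusted p of 0.05 in limma, which called 14 of all genes, 0.113%. At an unadjusted limma p under 0.05 there was 1, Hist2h2ac, against 3.38% of all genes. Both Kcnh2-/- libraries stood above both WT libraries for 10 of the 31 (16.7% of all genes) and below them for 2 (15.3% of all genes), Hist2h2ac and Hist1h1d. All 10 lie on chromosome 17, which holds 25 of the 31. Within both replicate numbers 26 were higher (30.8% of all genes) and 2 lower (28.1% of all genes), with medians of 0.41 within number 1 and 0.25 within number 2.

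This shift moved with the library left out and shrank under quantile normalization. That library was the lowest of the 4 for 25 of the 31 cluster genes, against 34.1% of all genes, and without it the median difference was 0.12. After quantile normalization the median was 0.0832, with 22 of the 31 positive, where 47.9% of all genes were. After median-of-ratios scaling the median was 0.38, with 29 of the 31 positive, where 50.5% of all genes were. The part of the pluripotency, endoderm and cardiomyocyte markers given above in the shift was not tested.

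**Figure D1:**
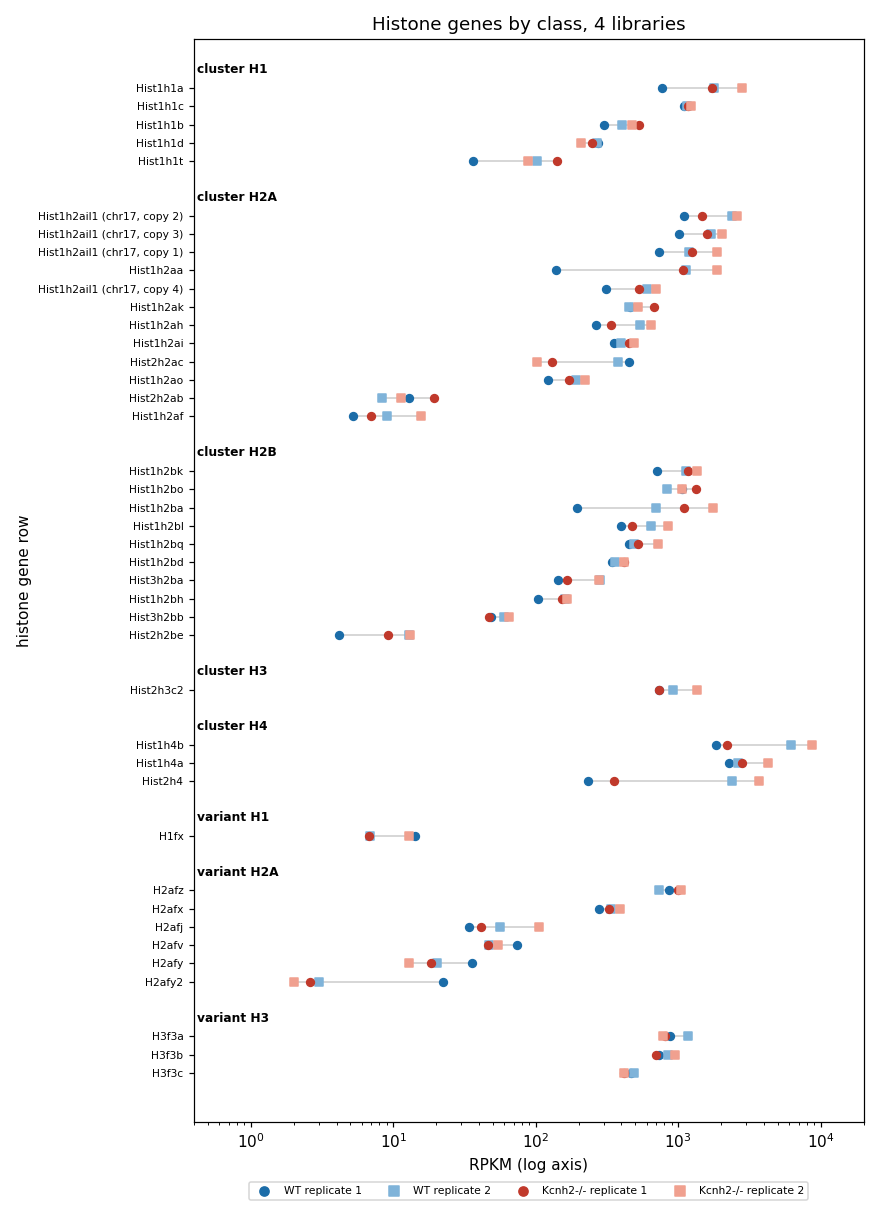
RPKM (log axis) of the 41 histone genes that passed the filter, 1 row per gene, grouped by class, with circles for replicate 1, squares for replicate 2, blue for WT and red for Kcnh2-/-. Copies of Hist1h2ail1 are numbered by position on chromosome 17. WT replicate 1 (dark blue) is the leftmost point for 25 of the 31 cluster genes and 2 of the 10 variants.

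The linker histone genes Hist1h1a, Hist1h1c and Hist1h1b had the highest H1 levels. Hist1h1a (rn6 chromosome 17, 43614101 to 43614844) was at 774 and 1778 RPKM in WT, against 1728 and 2789 in Kcnh2-/-. Its groups overlapped narrowly, since WT replicate 2 lay just above Kcnh2-/- replicate 1. The difference was 0.90 ± 0.60 on the log2 scale (SE, limma adjusted p = 0.980). It was 1.16 within number 1 and 0.65 within number 2, and 0.30 without WT replicate 1. Hist1h1c, the H1.2 gene, varied least, at 1101 and 1157 RPKM in the WT libraries and 1169.8 and 1234 in the Kcnh2-/- ones. Its groups did not overlap, yet the difference was 0.0897 ± 0.36 (limma adjusted p = 0.986). Hist1h1b (H1.5) stood at 300.3 and 404 RPKM in WT, against 531 and 475 in Kcnh2-/-, again without overlap. Its locus holds 6 genes in the tables. Hist1h1d (H1.3) went the other way, at 271 and 269 RPKM in WT, against 248 and 207 in Kcnh2-/-. That was a difference of -0.25 ± 0.27 (limma adjusted p = 0.980). H1 genes thus differed among themselves, with Hist1h1d lower in both Kcnh2-/- libraries and the others at or above WT in mean.

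Of the 12 tested H2A genes of the clusters, 11 were higher in Kcnh2-/- and 1, Hist2h2ac, was lower. The 3 highest levels belonged to rows with the symbol Hist1h2ail1, which stands on 4 rows at separate places on chromosome 17. Genes of this class are near-identical copies, and how the authors' tools divided reads among them is not given, so single H2A values are uncertain. The copy at 43616247 to 43616657 was at 732 and 1200.0 RPKM in the WT libraries and 1252 and 1877 in the Kcnh2-/- ones, with no overlap and a difference of 0.71 ± 0.47 (limma adjusted p = 0.980). The copy at 43814773 to 43815183 was at 1105 and 2397 RPKM in WT against 1469 and 2605. There the libraries ordered by replicate number rather than genotype, and the difference was 0.27 ± 0.61. For the copy in the interval 44756555 to 44793927 the levels were 1017 and 1707 RPKM against 1594 and 2018, with WT replicate 1 apart from the other 3 libraries. Hist1h2ai was at 354 and 398 RPKM in WT, against 452 and 489 in Kcnh2-/-. Hist1h2ak was at 458 and 454 RPKM in WT, against 671 and 519.8 in Kcnh2-/-. These last 2 genes were higher in both Kcnh2-/- libraries, by 0.32 ± 0.29 and 0.37 ± 0.32 (limma adjusted p = 0.980 for each). Hist2h2aa2 and Hist2h2aa3 did not pass the filter and were at 0.696 RPKM or less.

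Hist2h2ac had the widest downward difference among cluster genes. This H2A gene of the small cluster on chromosome 2 (rn6, 198360301 to 198360678) was at 455 and 376 RPKM in the WT libraries and 129.9 and 103 in the Kcnh2-/- ones. Both WT libraries lay well above both Kcnh2-/- libraries, with means of 416 ± 55.6 and 116 ± 19.3 RPKM (SD, n = 2), 3.57-fold lower in Kcnh2-/-. The log2 difference was -1.83 ± 0.29 (SE), with -1.80 within number 1 and -1.86 within number 2, and stayed between -2.00 and -1.66 when any 1 library was left out. Its unadjusted limma p was 0.00202 and its adjusted p 0.690, so it did not pass. With a term for the replicate number and protein-coding genes alone it passed (limma adjusted p = 0.0120, where 0.756% of 10851 genes were called), and with the term over all genes it did not (0.105, where 0.227% of all genes were called). A clone-named row at the same coordinates was listed at 0 in all libraries. The genes beside it did not share the direction. Hist2h2ab was at 13.0 and 8.35 RPKM in WT, against 19.2 and 11.3 in Kcnh2-/-, with overlapping groups. Hist2h2be, whose promoter window overlaps that of Hist2h2ac, was at 4.14 and 12.9 RPKM against 9.13 and 13.2, also overlapping. In RPKM, Hist2h2ac was above both neighbours in every library.

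The 10 H2B genes tested were all higher in Kcnh2-/- in mean, with a median difference of 0.34, and 4 lay higher with groups that did not overlap (16.7% of all genes). Hist1h2bk was at 712 and 1141 RPKM in WT, against 1177 and 1359 in Kcnh2-/-. WT replicate 1 was the low library here, and the difference was 0.49 ± 0.42 (SE, limma adjusted p = 0.980). Hist1h2bo was at 1057 and 831 RPKM in WT against 1343 and 1056 in Kcnh2-/-. It was higher in replicate 1 than in replicate 2 in both genotypes, the reverse of most cluster genes, and its difference was 0.34 within number 1 and 0.35 within number 2. Hist1h2bq stood at 454 and 491 RPKM against 524 and 721, and Hist1h2bd at 341 and 363 RPKM against 417 and 413. Neither overlapped, with differences of 0.38 ± 0.33 and 0.24 ± 0.28. The pair of H2B genes of the small cluster on chromosome 10, Hist3h2ba and Hist3h2bb, had differences of 0.10 and 0.0459, the smallest of the class. By location, the median difference was 0.38 over 25 genes on chromosome 17, 0.42 over 4 on chromosome 2 and 0.0754 over these 2 on chromosome 10. The 4 on chromosome 2 ran from -1.83 (Hist2h2ac) to 0.50 (Hist2h2be, at 13.2 RPKM or less), so their median describes no common shift.

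The widest upward differences belonged to Hist1h2ba and Hist1h2aa, neighbouring and divergently transcribed genes known for expression in the testis, where their products enter germ cell chromatin. Hist1h2ba (rn6 chromosome 17, 43423111 to 43423580) was at 194 and 704 RPKM in the WT libraries and 1095 and 1759 in the Kcnh2-/- ones. Both Kcnh2-/- libraries lay above both WT libraries, with a difference of 1.90 ± 0.73 (SE) that was 2.49 within number 1 and 1.32 within number 2. Its unadjusted limma p was 0.0513 and its adjusted p 0.980. With the replicate term and protein-coding genes alone its limma adjusted p was 0.0264, and with the term over all genes 0.239. Hist1h2aa (43422454 to 43422846) was at 138 and 1128 RPKM in WT, against 1083 and 1874 in Kcnh2-/-. WT replicate 1 was far below the other 3 libraries and the groups overlapped. Its difference of 1.85 ± 1.08 (limma adjusted p = 0.980) was 2.96 within number 1 and 0.73 within number 2. It was 0.34 when WT replicate 1 was left out. Without WT replicate 1 the difference of Hist1h2ba was 0.98. A clone-named row on the same coordinates as Hist1h2aa was listed at 664076 and 45295 RPKM in WT, against 6.5e+06 and 111950 in Kcnh2-/-. How reads were assigned between that row and Hist1h2aa is not given.

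Hist1h1t, the testis linker histone gene, was at 36.4 and 102 RPKM in the WT libraries and 142 and 88.3 in the Kcnh2-/- ones. Here the groups overlapped, and the difference changed sign between numbers, with 1.93 and -0.20. Germ cell genes outside the histone families were compared for the same libraries. Of 8 listed, 6 passed the filter, all 6 were higher in Kcnh2-/- in mean and lowest in WT replicate 1, and 0 passed the threshold in limma (2 at an unadjusted p under 0.05, against 3.38% of all genes). Their median difference was 1.37, and 3 lay higher with groups that did not overlap (16.7% of all genes). The RNA helicase gene Ddx4 was at 7.75 and 27.9 RPKM in WT, against 105 and 81.9 in Kcnh2-/-, with a limma p of 0.0116 and an adjusted p of 0.980, which was 0.0409 with the replicate term and protein-coding genes alone. Sycp3, of the meiotic chromosome axis, was at 1.32 and 6.43 RPKM against 12.6 and 19.8. In sum the 8 genes were at 11.4 and 50.2 RPKM in WT, against 129 and 133 in Kcnh2-/-, with the meiotic entry gene Stra8 at 0.0494 RPKM or less in every library. Without the 3 testis genes the median difference of the cluster genes was 0.37 over 28. The part of germ cell RNA in these values was not tested.

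**Figure D2:**
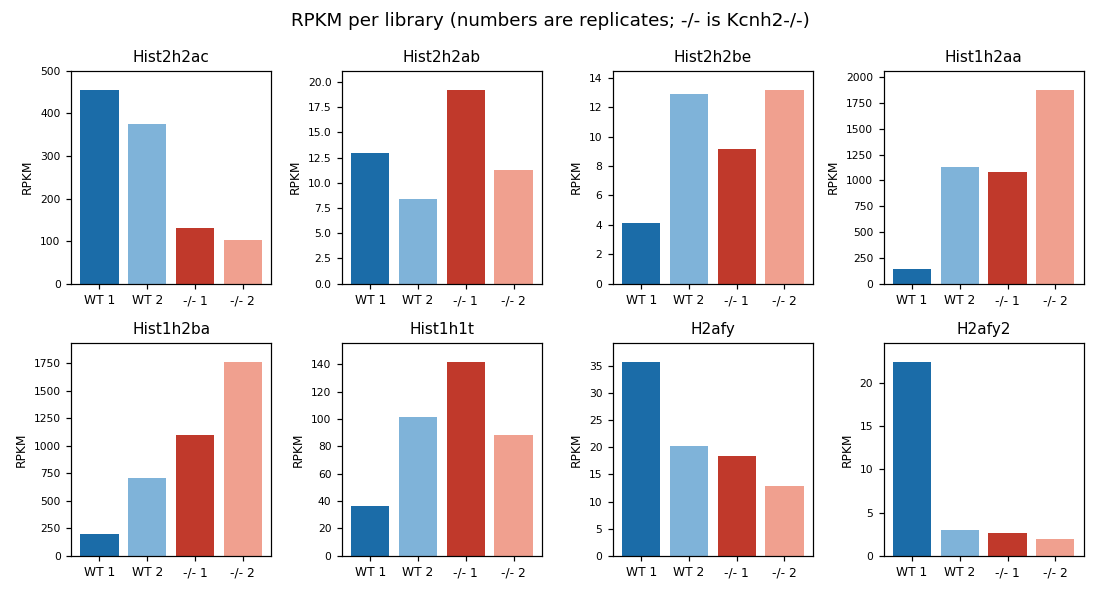
RPKM per library (bars from 0, own scale per panel) of Hist2h2ac, its neighbours Hist2h2ab and Hist2h2be, the testis-type genes Hist1h2aa, Hist1h2ba and Hist1h1t, and the macroH2A genes H2afy and H2afy2. Hist2h2ac is lower in both Kcnh2-/- libraries, a pattern its neighbours do not share, and Hist1h2ba lies higher in both Kcnh2-/- libraries.

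The H4 genes Hist1h4b and Hist1h4a had the highest mean levels of the histone genes, and Hist1h4b and Hist2h4 had wide gaps between replicate numbers. The single H3 row, Hist2h3c2, which the tables place on chromosome 17 in spite of its name, was at 734 and 917 RPKM in the WT libraries and 734.1 and 1349 in the Kcnh2-/- ones. The replicate 1 libraries were level (0.000595 on the log2 scale), while within number 2 the difference was 0.56, and WT replicate 2 lay between the Kcnh2-/- libraries. Hist1h4b, placed on chromosome 2, was at 1847 and 6169.8 RPKM in WT, against 2199 and 8763 in Kcnh2-/-. Hist2h4, placed on chromosome 17, was at 234 and 2372 RPKM in WT, against 353 and 3678 in Kcnh2-/-. For both genes each replicate 2 library stood far above each replicate 1 library, by 1.74 and 3.34 on the log2 scale in WT and by 1.99 and 3.38 in Kcnh2-/-, and the genotypes overlapped. Hist1h4a was steadier, at 2283 and 2618 RPKM against 2815 and 4262. It was higher in both Kcnh2-/- libraries, by 0.50 ± 0.52 (SE, limma adjusted p = 0.980). The remaining H4 row, Hist1h4m, was listed at 0 in all libraries.

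Most cluster genes shared the tie to the replicate number more mildly. Replicate 2 stood above replicate 1 in both genotypes for 23 of the 31, against 39.5% of all genes, and the median difference between numbers was 0.68 in WT and 0.45 in Kcnh2-/-. Short genes in general did the same. Over 28 other protein-coding genes with a locus under 500 bp the median difference between numbers was 1.06 in WT and 0.95 in Kcnh2-/-, against 0.70 and 0.59 for the 20 cluster genes of that length and 0.0359 and 0.0759 for 10709 protein-coding genes of 1000 bp or more. Between genotypes, those 28 short genes had a median difference of 0.32 (0.26 within number 1 and 0.0367 within number 2), beside 0.42 for the 20 cluster genes (0.47 and 0.34). The part of gene length in the cluster result was not tested. The telomerase RNA gene Terc, whose product lacks a conventional poly(A) tail, was at 519 and 1463 RPKM in the WT libraries and 1046 and 2521 in the Kcnh2-/- ones. It too was higher in replicate 2, and its groups overlapped.

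**Figure D3:**
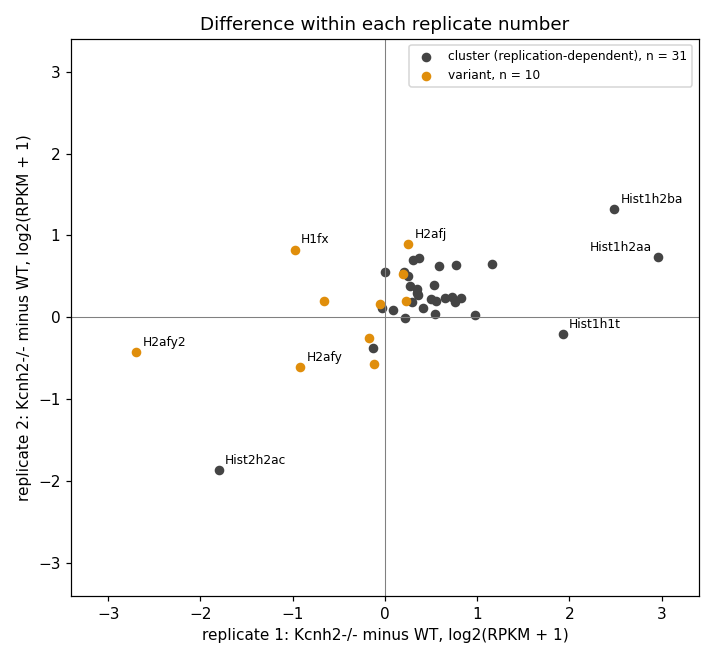
Difference in log2(RPKM + 1), Kcnh2-/- minus WT, within replicate 1 (horizontal axis) and replicate 2 (vertical axis) for 31 cluster genes (grey) and 10 variants (orange). Cluster genes gather in the upper right, with 26 of 31 higher within both numbers, while Hist2h2ac is the lowest point within number 2, at -1.80 and -1.86.

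Summed by class, the RPKM of cluster rows was 1.40-fold as high in Kcnh2-/- as in WT while the variant sum was level. Clone-named rows on the same loci were not part of these sums. The 34 cluster rows added up to 16007 and 29495 RPKM in WT and to 23044 and 40600 in Kcnh2-/-. Kcnh2-/- was higher within each number, 1.44-fold and 1.38-fold, but replicate 2 was 1.84-fold above replicate 1 in WT and 1.76-fold in Kcnh2-/-, a wider gap, and the groups overlapped. H4 gave the largest sums of any class in replicate 2, at 11161 RPKM in WT and 16704 in Kcnh2-/-, after 4364 and 5367 in replicate 1. H2A gave 4974 and 9014 RPKM in WT, against 7715 and 11076 in Kcnh2-/-. H2B sums were 3451 and 4694 RPKM against 5409.5 and 6678, and H1 sums 2484 and 3709.9 RPKM against 3818 and 4793. For these last 2 classes both Kcnh2-/- libraries exceeded both WT libraries. Without Hist1h2ba the H2B sum was still higher in both Kcnh2-/- libraries, at 3257 and 3989.6 against 4314 and 4919.6 RPKM, and the ratio of means was 1.27 in place of 1.48. The 13 variant rows added up to 3402 and 3703 RPKM in WT, against 3362 and 3770.3 in Kcnh2-/-, a ratio of 1.00. Among these the H2A variants were higher in both Kcnh2-/- libraries, at 1314 and 1195 against 1428.5 and 1614 RPKM, and the H3 variants overlapped, at 2074 and 2502 against 1927 and 2144. Cluster transcripts therefore stood at 4.70 and 7.97 times the variant sum in WT and at 6.85 and 10.8 times in Kcnh2-/-. This ratio overlapped between genotypes and was higher in replicate 2 in both. Relative to the summed RPKM of protein-coding genes, the cluster sum was 1.57% and 4.14% in WT, against 3.91% and 4.69% in Kcnh2-/-. On that scale the variant sum was not level within the numbers, at 0.334% and 0.520% in WT, against 0.571% and 0.436% in Kcnh2-/-.

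**Figure D4:**
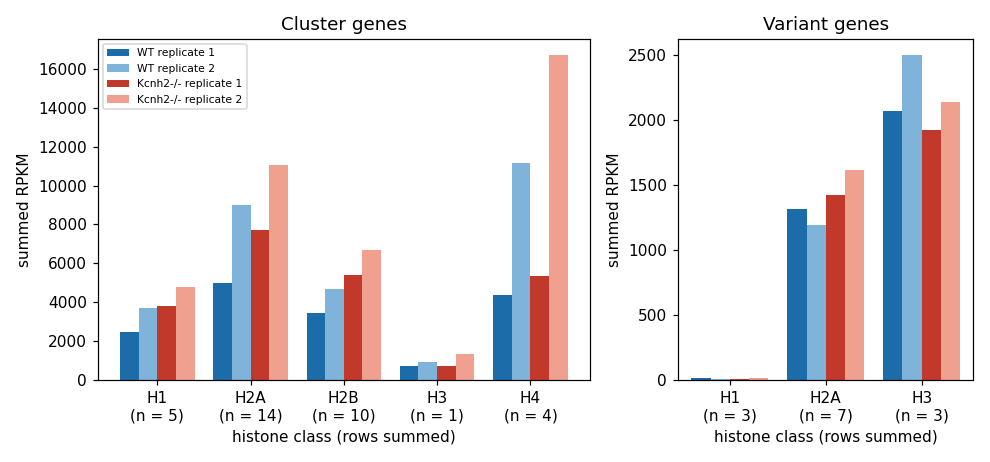
RPKM summed by class in each of the 4 libraries for cluster genes (left) and variants (right), with the number of rows summed under each class. Cluster H1 and H2B sums are higher in both Kcnh2-/- libraries, H4 sums follow the replicate number (4364 and 5367 RPKM in replicate 1, 11161 and 16704 in replicate 2), and variant H3 sums overlap between genotypes.

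Variant genes had no common direction. Of the 10 tested, 4 were higher and 6 lower in Kcnh2-/- in mean, with a median difference of -0.14, which was -0.14 within number 1 and 0.18 within number 2. None passed the threshold in limma, and none had an unadjusted p under 0.05. Groups did not overlap for 1 upward, H2afz (16.7% of all genes), and for 4 downward, H2afy, H2afy2, H3f3a and H3f3c (15.3% of all genes). After quantile normalization 1 of the 10 was positive (47.9% of all genes), and the median became -0.34. After median-of-ratios scaling 4 of the 10 were positive, with a median of -0.14. Without WT replicate 1 the median was 0.0163. H1foo, H1fnt and H2afb3, known for expression in oocytes and the testis, were listed at 0 in all libraries.

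Among H2A variants, H2afz and H2afx were the most abundant. H2afz encodes H2A.Z, which marks promoters and is needed for early development, and was at 868 and 731 RPKM in the WT libraries and 992 and 1052 in the Kcnh2-/- ones. Both Kcnh2-/- libraries were higher, by 0.36 ± 0.34 (SE, limma adjusted p = 0.980), though quantile normalization turned the sign to -0.0588. Its paralogue H2afv was at 73.7 and 47.2 RPKM against 46.2 and 54.2, with WT replicate 1 as the high library and the rest close together. H2afx, whose product H2A.X is phosphorylated at DNA breaks and whose gene gives both stem-loop and polyadenylated mRNA, was at 279.9 and 337 RPKM against 328 and 388. The groups interleaved, and the difference was 0.21 ± 0.29. A clone-named row on the coordinates of H2afx was listed at 77538 and 13948 RPKM in WT, against 96832 and 18694 in Kcnh2-/-. H2afj stood at 34.2 and 56.3 RPKM against 41.0 and 105, with Kcnh2-/- replicate 2 alone high.

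The macroH2A genes, whose large H2A variants carry a macro domain and are enriched on the inactive X chromosome and silent genes, were both lower in Kcnh2-/-. H2afy (macroH2A1) was at 35.7 and 20.2 RPKM in WT, against 18.4 and 13.0 in Kcnh2-/-. H2afy2 (macroH2A2) was at 22.3 and 3.02 RPKM in WT, against 2.60 and 1.99 in Kcnh2-/-. Neither overlapped, but for H2afy2 the 3 libraries other than WT replicate 1 lay close together. H2afy differed by -0.76 ± 0.39 (SE, limma adjusted p = 0.980), with -0.92 and -0.61 within the numbers and -0.37 without WT replicate 1. H2afy2 differed by -1.56 ± 0.90 (limma adjusted p = 0.980), with -2.70 and -0.42 within the numbers and -0.29 without WT replicate 1. Within each genotype both genes were also higher in replicate 1. In both genotypes that replicate had higher sums of endoderm, cardiomyocyte, fibroblast, primitive streak and trophoblast markers. Its sum of pluripotency markers was lower. The part of cell composition in these values was not tested.

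H3.3, the H3 variant deposited outside replication, is encoded by H3f3a and H3f3b, which give the same protein. H3f3a was at 879.6 and 1169 RPKM in the WT libraries and 810.5 and 786 in the Kcnh2-/- ones. Both Kcnh2-/- libraries were lower, with log2 differences of -0.12 within number 1 and -0.57 within number 2 and a limma adjusted p of 0.980. H3f3b was at 729 and 842 RPKM against 702 and 945, fully overlapping. H3f3c, which RefSeq lists as a pseudogene, was at 466 and 491 RPKM against 414 and 413, and reads shared with the other H3.3 genes cannot be told apart in these tables. H1fx, a linker variant, was low and crossed over, at 14.3 and 6.81 RPKM in WT, against 6.75 and 12.9 in Kcnh2-/-.

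Genes that transcribe, process and carry histones had medians near that of all genes. Of 16 tested genes (of 17) for transcription and 3′ end formation of histone mRNA, 10 were higher and 6 lower in Kcnh2-/-, with a median of 0.0186 and 0 at an unadjusted limma p under 0.05. Slbp, which binds the stem-loop, was at 103 and 76.8 RPKM in WT, against 99.3 and 80.7 in Kcnh2-/-, and was higher in replicate 1 in both. Cpsf3, the endonuclease that cuts the 3′ end, was at 66.9 and 65.1 RPKM against 79.5 and 87.2. It was higher in both Kcnh2-/- libraries, with a limma p of 0.222 and an adjusted p of 0.980. Cpsf2, its partner in the cleavage complex, was at 35.2 and 27.2 RPKM against 27.9 and 20.8. Pou2f1, the gene of the octamer-binding factor Oct1, was at 5.44 and 13.5 RPKM against 5.86 and 4.92, with WT replicate 2 alone high.

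Histone chaperones gave medians of 0.0440 over 15 genes of the replication pathway and -0.0788 over 15 tested (of 16) for variants, and 0 passed in limma in either list (0 and 1 at an unadjusted p under 0.05, the latter Atrx). Rbbp7, an X-linked gene of the CAF-1 and HAT1 complexes, was at 471 and 315 RPKM in the WT libraries and 671 and 729 in the Kcnh2-/- ones. Atrx, an X-linked gene that works with Daxx to deposit H3.3, was at 42.8 and 37.8 RPKM against 94.9 and 92.5. Both were higher in both Kcnh2-/- libraries, beside the median of 0.60 over X-linked genes given above. Of the autosomal genes, the H3-H4 chaperone gene Asf1a was at 87.4 and 61.1 RPKM against 114 and 101, without overlap. The FACT subunit gene Ssrp1 was at 112 and 139.5 RPKM in WT against 104 and 81.2, lower in both. Nasp, an H3-H4 chaperone gene, followed the replicate number, at 322 and 180.1 RPKM against 449 and 165. Mis18a, for loading of the centromeric H3 variant, was at 29.4 and 30.9 RPKM against 39.3 and 39.7. Srcap and Vps72, of the complex that inserts H2A.Z, were at 3.71 and 13.0 RPKM against 3.65 and 4.28, and at 75.4 and 70.5 against 67.9 and 69.98. Dek, another H3.3 chaperone gene, was at 80.5 and 68.5 RPKM against 102 and 67.3.

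S phase genes had a median between that of all genes and that of the cluster genes. Of 26 tested S phase genes (of 27), 21 were higher in Kcnh2-/- in mean. In limma 0 passed (1 at an unadjusted p under 0.05, Pola1, whose limma adjusted p was 0.0427 with the replicate term and protein-coding genes alone), with a median of 0.19 that was 0.39 within number 1 and -0.0385 within number 2. WT replicate 1 was the lowest library for 19 of them. Their sums were 2002 and 2774 RPKM in WT, against 2860.5 and 3000.5 in Kcnh2-/-. Rrm2, the small subunit of ribonucleotide reductase, was at 122 and 257 RPKM against 284 and 493, without overlap (limma adjusted p = 0.980). Pola1, the X-linked catalytic subunit of polymerase alpha, was at 54.1 and 54.5 RPKM against 124 and 167. Ccne2, a cyclin of the entry into S phase, was at 21.0 and 8.55 RPKM against 8.17 and 2.54, lower in both, while Pcna, the replication clamp, was at 359 and 503 against 441 and 413. Genes of G2 and mitosis gave a median of 0.0456 over 16, with 0 at an unadjusted limma p under 0.05, and were lowest in WT replicate 1 for 11. Birc5, a subunit of the chromosomal passenger complex, was at 89.1 and 96.8 RPKM against 115 and 135 and did not overlap. Cdk1 was at 192 and 209.7 RPKM against 227 and 281. The number of cells in S phase was not measured, and its part in the cluster result was not tested.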

How the data were processed

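Ribosomal RNA was removed from total RNA before stranded library preparation and paired sequencing of 100 bp reads, per the labels' protocols. The authors deposited RPKM values per gene, 1 table per library, with an identifier, a symbol and an rn6 locus. The submitters' processing notes name TopHat2 2.0.13 and Cufflinks 2.2.1. The annotation, the strand setting and the length used to scale each gene are not given in the sources used here. Of 29 cluster genes with a locus under 1000 bp, 25 have a length that is a multiple of 3, so most models hold the coding length only, without the stem-loop. Starts are printed 1-based (1 bp was added). Of the cluster rows 12, and of the variant rows 4 (H2afv, H2afz, H2afj and H2afx), share their locus with another gene.

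Groups came from the sample titles. The 12355 genes that reached 1 RPKM in 2 or more of the 4 libraries were fitted in limma 3.58.1 (R 4.3.3; lmFit, then eBayes with trend) after log2(RPKM + 1), a scale on which changes of low genes are understated. Tests were two-sided, adjusted by Benjamini-Hochberg over all of these genes at a threshold of 0.05, and the model held no replicate term. For a single value, the smallest p of an exact permutation of 2 libraries against 2 is 0.333. The fit was tested on simulated data. The members, gene lists and rules were chosen with earlier results of these data known. Named were all tested variants, the 3 highest cluster genes per class, in each direction up to 10 members of smallest p without overlap, the testis genes, and from each other list up to 3 genes of smallest p and 2 of highest mean; the chromosome 2 and 10 neighbours were named after their values were seen. Lists of cell type markers covered pluripotency, primitive streak, endoderm, cardiomyocytes, fibroblasts, trophoblast and germ cells. Alternatives covered the pseudocount (0.1 and 10), the filter (none and 5 RPKM), the scaling, the variance model, the threshold (0.1), protein-coding genes alone, the replicate number as a term, and each library left out; the set less the testis genes and the set of genes alone on their locus and symbol were added later. Promoters came from RefSeq (GRCr8). Summaries used pandas 2.3.3 with numpy 2.4.6 under Python 3.11.15, and figures matplotlib 3.10.9.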

Additional observations from a re-analysis of the deposited data

How the results depend on the processing

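Adding the replicate number as a block, with protein-coding genes alone, raised histone genes called in limma from 0 to 2 (Hist2h2ac and Hist1h2ba). Over all genes tested, that setting called 82 of 10851 (0.756%), against 14 of 12355 (0.113%) in the main fit. Every other setting run with all 4 libraries left the count of histone genes at 0, including the block over all genes. Whether equal numbers mark a shared culture is not given. The deviations of replicates from their group means correlated between WT and Kcnh2-/- at r = 0.38 across all genes tested. The correlation was 0.58 across protein-coding genes and 0.64 across histone genes. The block added no other call among histone genes. Leaving out single libraries moved the median difference of cluster genes between 0.12 and 0.69 and that of variants between -0.26 and 0.0748. Genes alone on their locus and symbol gave a cluster median of 0.37 over 18. Under quantile normalization the sign turned for H2afz (-0.0588), Hist1h2bd (-0.0505), H2afx (-0.10), Hist2h3c2 (-0.0685), the Hist1h2ail1 copy at 43814773 (-0.14), Hist1h1c (-0.24) and H3f3b (-0.30). With single libraries left out the sign turned for 8 named genes, whose ranges were -0.0971 to 1.24 for H2afj, -0.55 to 0.0823 for H2afv, -0.16 to 0.72 for Hist2h3c2, -0.29 to 0.82 for that Hist1h2ail1 copy, -1.08 to 2.30 for Hist2h4, -0.62 to 1.38 for Hist1h4b, -0.16 to 0.27 for H3f3b and -0.56 to 0.41 for H1fx; the cause was not tested. Over the 31 named genes, 407 values kept their direction and side of the threshold, 2 moved past it and 20 reversed. With 2 libraries per group and no read counts, the depth behind a value is unknown.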

Other observations

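Some clone-named rows at the coordinates of histone genes had RPKM values far above those of the genes, while others were at or near 0. There were 13 such rows, of which 9 were above 0 in some library, and together they took 21.3% and 3.42% of the RPKM sum of the WT libraries and 25.2% and 7.21% of that of the Kcnh2-/- libraries, for replicates 1 and 2. The 47 histone genes themselves took 0.0244% and 0.284% in WT and 0.0241% and 0.497% in Kcnh2-/-. At the cluster H2A loci the values of these rows were whole multiples of a step particular to each library, within 0.1 of that step. The step was 66408 RPKM in WT replicate 1, 1678 in WT replicate 2, 76515 in Kcnh2-/- replicate 1 and 1722 in Kcnh2-/- replicate 2. The row on the locus of the variant gene H2afx, AC105645.5, was above 0 in all libraries and did not keep to these steps. The row on the Hist1h2aa locus, AC121663.1, stood at 10 and 27 steps in WT and at 85 and 65 in Kcnh2-/-, with both Kcnh2-/- libraries above both WT libraries. AC114096.2, on the Hist1h2ak locus, stood at 96 and 73 steps in WT and 101 and 103 in Kcnh2-/-. AC130391.2, on the Hist1h2ah locus, stood at 34 and 57 against 34 and 75. AABR07072559.1, on the Hist1h2ai locus, stood at 52 and 24 steps against 35 and 49. The highest of the named rows reached 103 steps.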
